A study of Mus musculus with 12 samples.

Results

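The Dppa family and other effector genes of pluripotency were followed in ribosome profiles of mouse cells at a naive stage, embryonic stem cells (ESCs), and at a primed stage, epiblast-like cells (EpiLCs). The set held the 10 genes Dppa2, Dppa3, Dppa4, Dppa5a, Tcl1, Tdh, Fbxo15, Utf1, L1td1 and Tex19.1, chosen by symbol, out of 22462 genes in the count table. All 10 had reads in each of the 12 libraries and passed the expression filter, which kept the 11750 genes that reached 3 CPM (counts relative to library size) in 3 or more libraries. ESCs were kept in Knockout DMEM with serum, LIF and 2i, the pair of inhibitors (against MEK and GSK3) that holds cells in the naive state. EpiLCs were collected about 56 h after LIF and 2i were taken away. The study lists wild-type V6.5 ESCs and a V6.5 line with miR-290 mCherry and miR-302 GFP reporters that was used for differentiation. It states that the changes of translation across the transition were characterized with this reporter system. Its profiling methods do not name the line, and the labels name no gene deletion. Each cell type gave 3 libraries of ribosome protected footprints (RPF) and 3 of total RNA. The study calls the replicates biological, but neither it nor the labels say whether they were separate cultures, so p-values measure the spread between these libraries.

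The 10 genes have long served as marks of the pluripotent state, but they are effectors rather than the transcription factors of its core network. Dppa2 and Dppa4 are DNA-binding partners with SAP domains that keep developmental promoters open. Dppa3 (Stella) protects the maternal genome from demethylation and binds Uhrf1, and Dppa5a (Esg1) is a small RNA-binding protein with a KH domain. Tcl1 is a coactivator of Akt kinases, Tdh is the mitochondrial threonine dehydrogenase that feeds glycine and acetyl-CoA to mouse ESCs, and Fbxo15 is an F-box protein long used as an ESC reporter gene. Utf1 is a chromatin-associated repressor, L1td1 is an RNA-binding protein derived from the LINE-1 retrotransposon, and Tex19.1 acts in retrotransposon control in the germ line and is known to be silenced by promoter methylation in somatic cells. Ribosome footprints count ribosomes on an mRNA, so the ratio of footprints to total RNA, the translational efficiency (TE), gives the ribosome load per RNA.

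The start codon is where ribosomes enter the coding sequence, and its surroundings are shown for 9 members because footprints were compared with RNA. It lies outside the counted sequence, which leaves out the first 45 nt. Sequences are from Gencode M21 on mm10, 6 bases before the start codon (in capitals) and 6 after it.
Dppa2: ctgaaaATGtcatac
Dppa3: atcgccATGgaggaa
Dppa4: ctcaagATGgagact
Dppa5a: ggcaggATGatggtg
Tcl1: gatgccATGgctacc
Tdh: gaacagATGctattc
Utf1: tcagggATGctgctt
L1td1: tccaccATGtcgggc
Tex19.1: ttgaccATGtgtccc
A purine 3 bases before the start codon, the best known mark of a strong start site, was present in 8 of the 10 members, against 86.2% of 11641 tested genes with a sequence. A G right after the start codon was present in 4 members, against 53.4%. An ATG in the 5′ leader preceded the start codon of 4 members (Dppa2, Tcl1, Tdh and L1td1), against 50.9% of 11714 tested genes. By these letters the members were thus close to other genes.

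The counted sequence itself set a limit that is particular to some members. The Dppa genes have processed pseudogene copies, and the counts hold only reads with a single mapping position. Of all 28 nt windows of the counted coding sequence, the length of a footprint, 92.0% in Dppa2, 88.8% in Dppa5a, 78.5% in Dppa4, 61.2% in Dppa3 and 45.3% in Tdh were also present in transcripts of other genes in Gencode M21. The share was 11.02% in L1td1, 5.79% in Tex19.1 and 0 in Tcl1, Fbxo15 and Utf1. Windows were cut from the Gencode M21 coding sequence without its first 45 nt. In L1td1, Tcl1 and Fbxo15 this sequence differs in length from the counted one. With the first 45 nt it has 2349, 582 and 1539 nt, against 2502, 597 and 1392 counted nt. Their shares may thus not cover all that was counted. Shares over 45% were found in 7.56% of 11714 tested genes and in 5 members. In 50 nt windows, the full read length, the shares fell to 83.7% in Dppa2, 60.1% in Dppa5a, 64.1% in Dppa4, 32.9% in Dppa3 and 25.0% in Tdh. The sequences shared with Dppa2 came from 9 genes, all typed as pseudogenes, and those shared with Dppa5a from 12 genes, of which 9 were pseudogenes. The 285 bases of Dppa5a at which a counted 28 nt window begins (bases 46 to 330 of the coding sequence) are printed with the 32 bases in capitals at which a window found in no other gene begins.
Dppa5a: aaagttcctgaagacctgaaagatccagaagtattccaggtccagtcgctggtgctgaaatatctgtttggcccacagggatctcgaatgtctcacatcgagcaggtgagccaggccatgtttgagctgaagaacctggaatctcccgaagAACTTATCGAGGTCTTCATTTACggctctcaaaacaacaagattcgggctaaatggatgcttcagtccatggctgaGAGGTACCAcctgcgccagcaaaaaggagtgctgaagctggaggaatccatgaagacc
Windows found in no other gene thus began in a few stretches of the gene. Levels and TE levels of these 5 members are uncertain for this reason. A comparison of ESCs with EpiLCs within an assay used the same gene sequence, but the read lengths of the cell types were not compared.

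**Figure D1:**
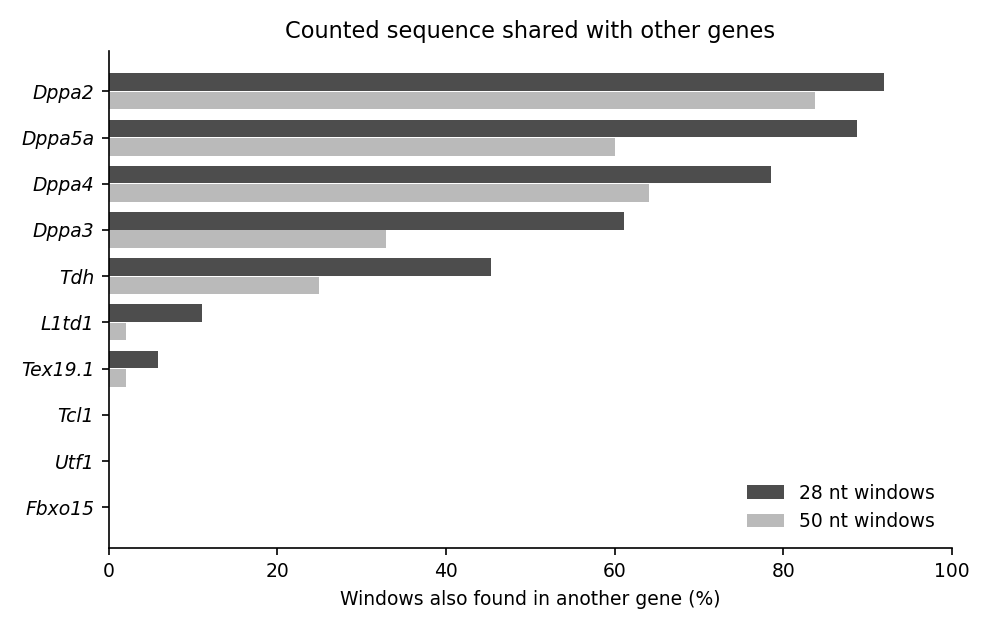
Share of windows of each gene's counted coding sequence that other annotated genes also hold (x axis, %), for windows of 28 nt (dark) and 50 nt (light). Dppa2 (92.0%), Dppa5a (88.8%) and Dppa4 (78.5%) are highest at 28 nt, and Tcl1, Fbxo15 and Utf1 are at 0.

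Library totals ran from 2681439 counts (EpiLC RPF replicate 2) to 14655015 counts (EpiLC total RNA replicate 1), so that 3 counts were worth 1.12 CPM of the total in the first and 0.205 CPM in the other. The naive markers Zfp42, Esrrb and Klf4 were called lower in EpiLCs and the primed markers Dnmt3b, Otx2 and Fgf5 higher, in both assays. Of genes that mark other cells, Cdx2 and Elf5 (trophoblast) and Postn (fibroblast) had at most 1 count in any library. The summed level of 6 fibroblast genes was 1.97 to 2.31 CPM in ESC total RNA and 12.8 to 14.9 CPM in EpiLC total RNA, with 3 of the 6 called higher. The sum of 7 primitive endoderm genes was 5.32 to 6.83 CPM against 15.1 to 22.3 CPM, with 1 called higher (Dab2), and that of 6 trophoblast genes 7.76 to 9.48 CPM against 8.36 to 11.9 CPM, with 1 called higher (Krt7) and 1 lower (Eomes). The part of other cells in the members' values was not tested. Fewer cells that express a gene and less RNA per cell cannot be told apart in such bulk libraries.

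Across the transition 5 members fell and 1 rose, in RNA and in footprints alike. Tcl1, Tdh, Fbxo15, Dppa5a and Tex19.1 were called lower in EpiLC total RNA, where 9.70% of all tested genes were called lower, and the same 5 were called lower in EpiLC RPF, where 10.6% were. Utf1 was called higher in total RNA and in RPF, against 14.6% and 15.4% of tested genes. Dppa2, Dppa3, Dppa4 and L1td1 were not called in either assay. Calls were made with voom and limma at an adjusted p below 0.05 and an absolute log2 fold change above 1, EpiLC over ESC. The median log2 change of the 10 members was -1.12 in RNA and -0.75 in RPF, and that of all tested genes was 0.026 and 0.011. Libraries of ESCs and EpiLCs did not overlap for 8 members in total RNA (all but Dppa4 and L1td1) and for 7 in RPF (all but Dppa2, Dppa4 and L1td1). The share of all tested genes without overlap was not counted, so these counts cannot be compared with other genes. At a limma adjusted p below 0.05 without the fold limit, 4068 of 11750 tested genes were higher and 3612 lower in RNA. In RPF the numbers were 3660 and 3369.

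**Figure D2:**
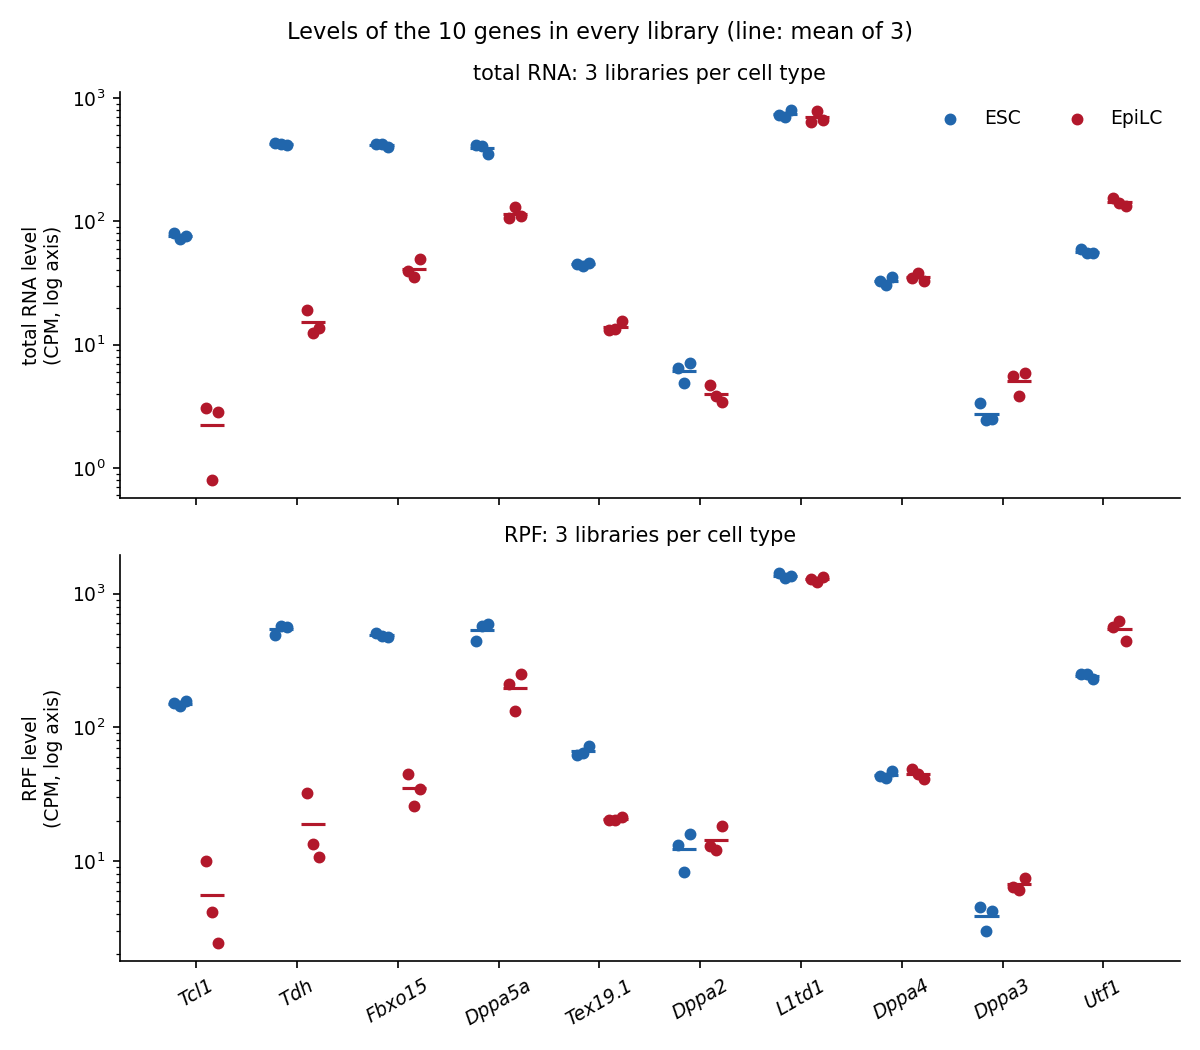
Level of each gene in every library (points, CPM on a log axis; line, mean of 3) in total RNA (top) and RPF (bottom), ESC in blue and EpiLC in red. Tcl1, Tdh and Fbxo15 drop by 10.1-fold or more in both assays, Utf1 rises, and L1td1 and Dppa4 overlap.

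Tcl1, the Akt coactivator (chr12:105217411-105222607, minus strand, 597 counted nt in 4 coding segments), fell with Tdh by more than the other members. Its total RNA level was 80.9, 71.6 and 75.5 CPM in ESC replicates 1 to 3 and 3.07, 0.801 and 2.86 CPM in EpiLC replicates 1 to 3. Its footprints were 151, 143 and 157 CPM in ESCs and 9.95, 4.18 and 2.44 CPM in EpiLCs. All ESC libraries were far above all EpiLC libraries. The log2 change was -5.04 ± 0.35 (SE) in RNA, a 33.0-fold fall (limma, adjusted p = 3.22e-12), and -4.99 ± 0.34 in RPF, a 31.8-fold fall (adjusted p = 5.14e-12). Of 11750 genes, 57 fell further in RNA and 54 in RPF.

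Tdh, the threonine dehydrogenase (chr14:63492707-63500259, minus strand, 1077 nt in 8 segments), was among the most abundant members in ESCs and fell nearly as far. Total RNA held 433, 419.6 and 412 CPM in ESCs and 19.23, 12.5 and 13.8 CPM in EpiLCs. Footprints stood at 493, 570.1 and 565 CPM in ESCs and at 32.4, 13.3 and 10.7 CPM in EpiLCs. The RNA fell 26.6-fold (log2 -4.74 ± 0.17, adjusted p = 1.62e-17 by limma) and the footprints 31.6-fold (log2 -4.98 ± 0.23, adjusted p = 2.28e-15).

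Fbxo15, which recruits substrates to SCF ubiquitin ligases (chr18:84957342-84981376, plus strand, 1392 nt in 9 segments), fell from an ESC level like that of Tdh. Its RNA level was 423, 422 and 402 CPM in ESCs against 39.3, 35.3 and 49.3 CPM in EpiLCs. Its footprint level was 503, 486 and 473 CPM against 44.8, 25.9 and 34.7 CPM. The fall was 10.1-fold in RNA (log2 -3.34 ± 0.10, limma adjusted p = 4.00e-19) and 13.5-fold in RPF (log2 -3.76 ± 0.13, adjusted p = 2.63e-17).

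The EpiLC libraries differed in how much of these genes was left. EpiLC RPF replicate 1 held the most Tcl1, Tdh and Fbxo15 of the 3 EpiLC RPF libraries, and it also held the most of the naive markers, with 58.5 CPM of Zfp42 against 33.1 and 35.7 CPM, 45.4 CPM of Esrrb against 24.0 and 18.01 CPM and 7.47 CPM of Klf4 against 3.42 and 0.938 CPM. EpiLC total RNA replicate 2 held the least Tcl1, Tdh and Fbxo15 of its group and also the least Zfp42, Esrrb and Klf4 (27.9, 6.41 and 0.961 CPM). The part of naive gene expression left in a library in these values was not tested. Without EpiLC RPF replicate 1 the RPF change was -5.65 for Tcl1, -5.58 for Tdh and -3.99 for Fbxo15 (log2), still called. Without EpiLC RPF replicate 3, the lowest for Tcl1 and Tdh, it was -4.38 for Tcl1 and -4.54 for Tdh. Without EpiLC total RNA replicate 2 the RNA change of Tcl1 was -4.64.

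Dppa5a (chr9:78367236-78368054, minus strand, 312 nt in 3 segments), the RNA-binding KH protein, fell by less. Total RNA was 417, 411 and 353 CPM in ESCs and 106, 129.95 and 111 CPM in EpiLCs. Footprints were 439.7, 576 and 594 CPM in ESCs and 212, 132 and 250.3 CPM in EpiLCs. The groups did not overlap, and EpiLC RPF replicate 2 was well below the other EpiLC footprint libraries. The log2 change was -1.79 ± 0.13 in RNA (3.47-fold lower, limma adjusted p = 7.19e-12) and -1.41 ± 0.14 in RPF (2.65-fold lower, adjusted p = 3.62e-09). Per length it had the highest mean of the members in both cell types even so, but in EpiLC RPF its range overlapped that of Utf1.

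Tex19.1, the retrotransposon regulator of the germ line (chr11:121146863-121147873, plus strand, 1011 nt in 1 segment), fell by a like amount with little spread. Its RNA level was 45.2, 43.7 and 45.7 CPM in ESCs and 13.2, 13.3 and 15.6 CPM in EpiLCs. Its footprint level was 62.6, 64.0 and 72.2 CPM in ESCs and 20.3, 20.2 and 21.2 CPM in EpiLCs. The change was -1.69 ± 0.12 in RNA (adjusted p = 3.41e-12 by limma) and -1.69 ± 0.14 in RPF (adjusted p = 1.26e-10), both 3.22-fold lower.

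Utf1 (chr7:139943919-139944990, plus strand, 975 nt in 2 segments), the chromatin-associated repressor, was the only member called higher. RNA levels were 59.7, 55.8 and 55.1 CPM in ESCs and 156, 140.4 and 133 CPM in EpiLCs. Footprint levels were 249.1, 248.9 and 229 CPM in ESCs and 567, 627 and 446 CPM in EpiLCs. The RNA was 2.53-fold higher (log2 1.34 ± 0.11, limma adjusted p = 4.26e-11) and the footprints 2.21-fold higher (log2 1.15 ± 0.09, adjusted p = 4.22e-11). The counted sequence of Utf1 has a GC content of 65.5%, higher than in 98.1% of tested genes, and after a correction of each library for GC content its log2 change was 0.95 in RNA and 0.68 in RPF, below the fold limit but with adjusted p of 1.07e-11 and 3.07e-10.

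The promoters of Utf1 and Tex19.1, the called members whose RefSeq start matched the Gencode start, are shown as the 250 bases before the RefSeq transcript start (GRCm38.p6, plus strand, chr7:139943606-139943855 and chr11:121145893-121146142), with matches to the GC box (GGGCGG) and the TATA box (TATAAA), on either strand, in capitals.
Utf1: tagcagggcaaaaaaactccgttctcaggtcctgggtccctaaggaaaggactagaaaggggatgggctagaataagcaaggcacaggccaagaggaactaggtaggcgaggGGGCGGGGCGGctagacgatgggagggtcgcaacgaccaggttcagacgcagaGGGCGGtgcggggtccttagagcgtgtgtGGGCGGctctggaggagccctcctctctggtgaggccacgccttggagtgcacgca
Tex19.1: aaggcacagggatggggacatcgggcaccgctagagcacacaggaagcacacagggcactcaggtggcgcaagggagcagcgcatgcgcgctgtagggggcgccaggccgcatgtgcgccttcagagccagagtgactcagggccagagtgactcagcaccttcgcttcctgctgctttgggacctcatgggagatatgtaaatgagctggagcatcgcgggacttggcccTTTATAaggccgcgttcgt
The Utf1 window held 4 GC boxes, of which a pair overlapped by 1 base, and 14 CpG dinucleotides, and the Tex19.1 window held a TATA box on the minus strand and 15 CpG. Of 32851 promoters of the same length, 32.7% held a GC box and 12.4% a TATA box, and the median number of CpG was 6. Of the other members with an entry, Tcl1, whose RefSeq start differs from the Gencode start, had 2 GC boxes and L1td1 had no match to any motif searched. The octamer (ATTTGCAT), the ESRRB motif (TCAAGGTCA) and the E-box (CACGTG), which were also searched on both strands, were in neither window and in 1.60%, 0.387% and 6.02% of all promoters.

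L1td1 and Dppa4 differed little between the cell types. L1td1, the LINE-1 derived RNA-binding protein (chr4:98733248-98738116, plus strand, 2502 nt in 2 segments), gave the most reads of all members. It had 721, 703 and 791 CPM in ESC total RNA and 639.6, 779.9 and 665 CPM in EpiLC total RNA. Its footprints were 1416, 1314 and 1365 CPM in ESCs and 1284, 1223 and 1324 CPM in EpiLCs. The ranges overlapped in both assays, and the log2 change was -0.11 (95% interval -0.23 to 0.019) in RNA and -0.09 (-0.22 to 0.032) in RPF, with limma adjusted p of 0.128 and 0.19. Changes of 2-fold in either direction lie outside both intervals.

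Dppa4 (chr16:48287899-48293732, plus strand, 846 nt in 6 segments) had 32.9, 30.6 and 35.4 CPM in ESC total RNA and 34.6, 38.3 and 33.0 CPM in EpiLC total RNA. Its footprints were 43.3, 41.7 and 47.2 CPM in ESCs and 48.7, 44.5 and 41.3 CPM in EpiLCs. The log2 change was 0.09 (95% interval -0.12 to 0.29) in RNA and 0.0059 (-0.23 to 0.25) in RPF, with limma adjusted p of 0.451 and 0.971. The sign of the RPF change depended on the scaling and on the library left out.

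Dppa2, the partner of Dppa4, lies 17854 bases downstream on the same strand (chr16:48311587-48318711, 861 nt in 6 segments) with no other gene of the table between them, and had far fewer reads. Total RNA held 6.42, 4.89 and 7.12 CPM in ESCs and 4.74, 3.85 and 3.44 CPM in EpiLCs, without overlap. Footprints were 13.1, 8.30 and 15.8 CPM in ESCs and 12.9, 12.2 and 18.4 CPM in EpiLCs, with overlap. The log2 change was -0.55 ± 0.27 in RNA (limma adjusted p = 0.0784) and 0.19 ± 0.23 in RPF (adjusted p = 0.491), so neither was called, on 859 reads over the 12 libraries. In RNA the adjusted p was 0.0077 to 0.086 over the alternative fits by limma, edgeR and DESeq2. With a library left out it was 0.033 to 0.218 (limma). The log2 RNA change lay between -0.73 and -0.43 in all of these, under the fold limit. Its RPF change turned to -0.015 without ESC RPF replicate 2 and to -0.061 without EpiLC RPF replicate 3.

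Dppa3 (chr6:122626568-122630005, plus strand, 408 nt in 4 segments), which guards maternal methylation marks, was the lowest member in ESCs per length. Total RNA was 3.35, 2.44 and 2.49 CPM in ESCs and 5.61, 3.85 and 5.84 CPM in EpiLCs. Footprints were 4.49, 2.98 and 4.22 CPM in ESCs and 6.43, 6.08 and 7.51 CPM in EpiLCs. Every EpiLC library was above every ESC library in both assays. The log2 difference was 0.92 ± 0.25 in RNA (limma adjusted p = 0.00276) and 0.76 ± 0.30 in RPF (adjusted p = 0.0309), under the fold limit, on 445 reads in all, and the adjusted p in RPF was up to 0.139 when a library was left out. The RNA change passed the fold limit without ESC total RNA replicate 1 (1.08) or EpiLC total RNA replicate 2 (1.04).

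**Figure D3:**
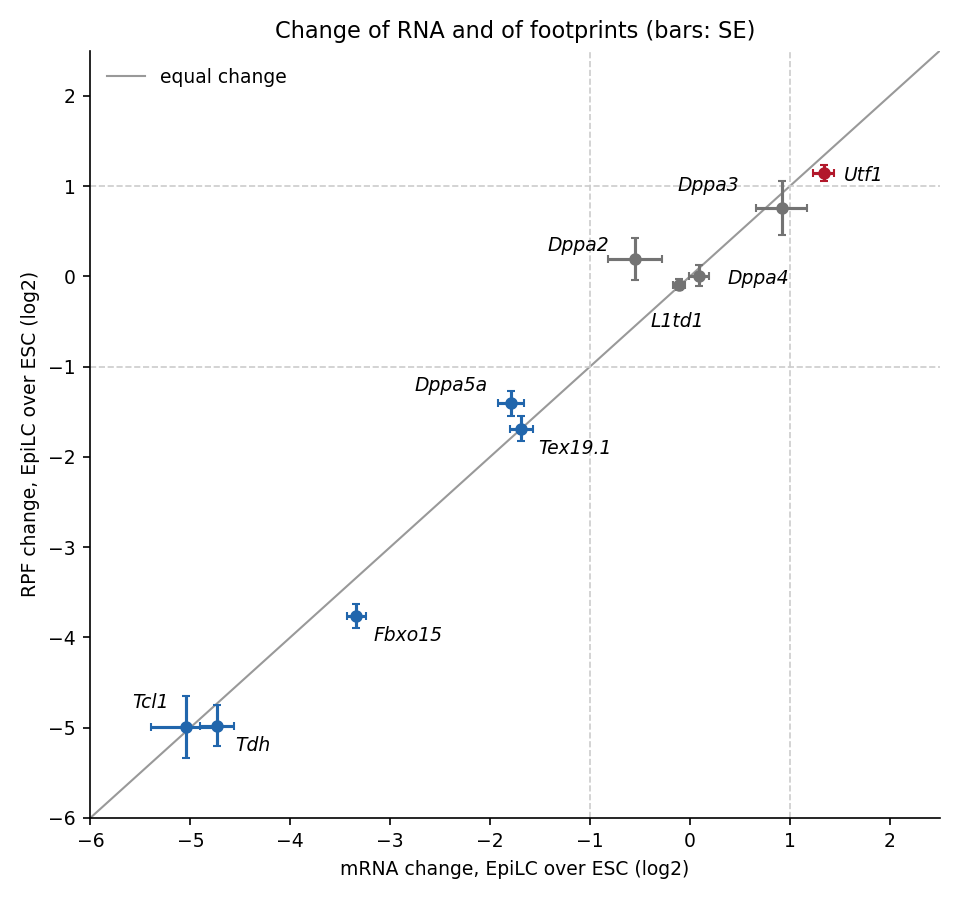
log2 change of total RNA (x axis) against log2 change of RPF (y axis), EpiLC over ESC, for the 10 genes with standard errors. The solid line marks equal change and dashed lines the 2-fold limits. Genes called lower in both assays are blue, Utf1 is red, and the 4 genes that were not called are grey.

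Translational efficiency was compared within each cell type as the log2 ratio of RPF to total RNA after scaling, on which the median gene was at -0.021 in ESCs and -0.015 in EpiLCs. In ESCs all 10 members had a TE above 0, as did 49.0% of all tested genes, with a median of 0.56, and 9 of them had an adjusted p below 0.05 and a TE above 0, as did 3872 of 11750 tested genes. In EpiLCs 9 members had a TE above 0, as did 49.3% of all tested genes, with a median of 0.70, and 6 had an adjusted p below 0.05, as did 3681 of 11750. With the fold limit, 2 members were called high in ESCs, Utf1 and Dppa2, against 7.93% of tested genes, and the same 2 in EpiLCs, against 9.39%. No member was called low in ESCs or EpiLCs (voom and limma, 0 at an unadjusted p below 0.05, and 0 called by edgeR and DESeq2), against 13.5% and 14.4% of tested genes.

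Utf1 and Dppa2 had the highest TE estimates of the members. The log2 TE of Utf1 was 2.08 ± 0.10 in ESCs, a 4.23-fold excess over the scaled RNA level that only 71 of 11750 genes exceeded, and 1.89 ± 0.09 in EpiLCs (limma adjusted p = 6.06e-15 and 6.31e-15). In the same-numbered libraries its log2 ratio was 2.06, 2.16 and 2.05 in ESCs and 1.87, 2.16 and 1.75 in EpiLCs. Dppa2 had a log2 TE of 1.09 ± 0.22 in ESCs (adjusted p = 9.18e-05) and 1.83 ± 0.28 in EpiLCs (adjusted p = 3.69e-06). In EpiLCs the values of Utf1 and Dppa2 thus lay within their errors, and after the GC correction they were 1.60 and 1.97. In ESCs Dppa2 was below the fold limit without ESC RPF replicate 3 (0.87), without ESC total RNA replicate 2 (0.94) and in limma-trend (0.95).

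Tcl1 stood at the fold limit, with 0.99 ± 0.10 in ESCs and 1.05 ± 0.48 in EpiLCs (limma adjusted p = 1.30e-09 and 0.0585). In EpiLCs its few reads left a 95% interval of 0.061 to 2.03. In EpiLCs it was called high by edgeR (1.17) and DESeq2 (1.32) and without EpiLC RPF replicate 3 (1.72) or EpiLC total RNA replicate 1 (1.45), and it was 0.44 without EpiLC RPF replicate 1 and 0.65 without EpiLC total RNA replicate 2, neither called. In ESCs it passed the limit in DESeq2 (1.03) and with 6 of the 12 libraries left out in turn, at 1.05 or less. L1td1 had nearly equal TE in both cell types, 0.89 ± 0.06 and 0.90 ± 0.06, and passed the fold limit in both after the GC correction (1.08 and 1.16). Tex19.1 had 0.58 in both, Dppa4 had 0.44 and 0.36, Dppa3 had 0.54 and 0.38 and Dppa5a had 0.44 and 0.82, which was 1.05 and called without EpiLC RPF replicate 2. Tdh and Fbxo15 were lowest, with 0.36 and 0.23 in ESCs and 0.11 and -0.19 in EpiLCs.

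The shared windows bear on these TE levels, because footprints of 26 to 32 nt were set against total RNA reads of at least 32 nt. The fraction of windows found in no other gene was 0.0803 at 28 nt and 0.163 at 50 nt in Dppa2, and 0.112 and 0.399 in Dppa5a. The log2 ratio of the 50 nt fraction to the 28 nt fraction was 1.02 for Dppa2, 0.79 for Dppa3, 0.74 for Dppa4, 1.83 for Dppa5a and 0.46 for Tdh, and 0 for Utf1, Tcl1 and Fbxo15. The part of mapping in their TE levels was not tested.

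The change of TE between the cell types, the difference between the RPF change and the RNA change, was not called for any member (voom and limma, an interaction term, against 0.136% of tested genes called higher and 0.119% called lower). The unadjusted limma p was below 0.05 for Dppa2 (higher) and Fbxo15 (lower). The share of all tested genes below it was not counted, so this cannot be compared with other genes. By edgeR and DESeq2, 0 members were called as well. Fbxo15 had a log2 TE change of -0.42 (95% interval -0.76 to -0.083, limma adjusted p = 0.231), and its adjusted p was 0.099 without EpiLC RPF replicate 1, with a change of -0.62. Dppa2 had 0.74 (0.0070 to 1.47, adjusted p = 0.355) and Dppa5a 0.39 (-0.0013 to 0.78, adjusted p = 0.361). L1td1 had the narrowest interval, 0.01 (-0.17 to 0.19), followed by Utf1 with -0.19 (-0.47 to 0.093). Tcl1 had the widest, 0.05 (-0.95 to 1.06), which holds a 2-fold rise of its TE.

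**Figure D4:**
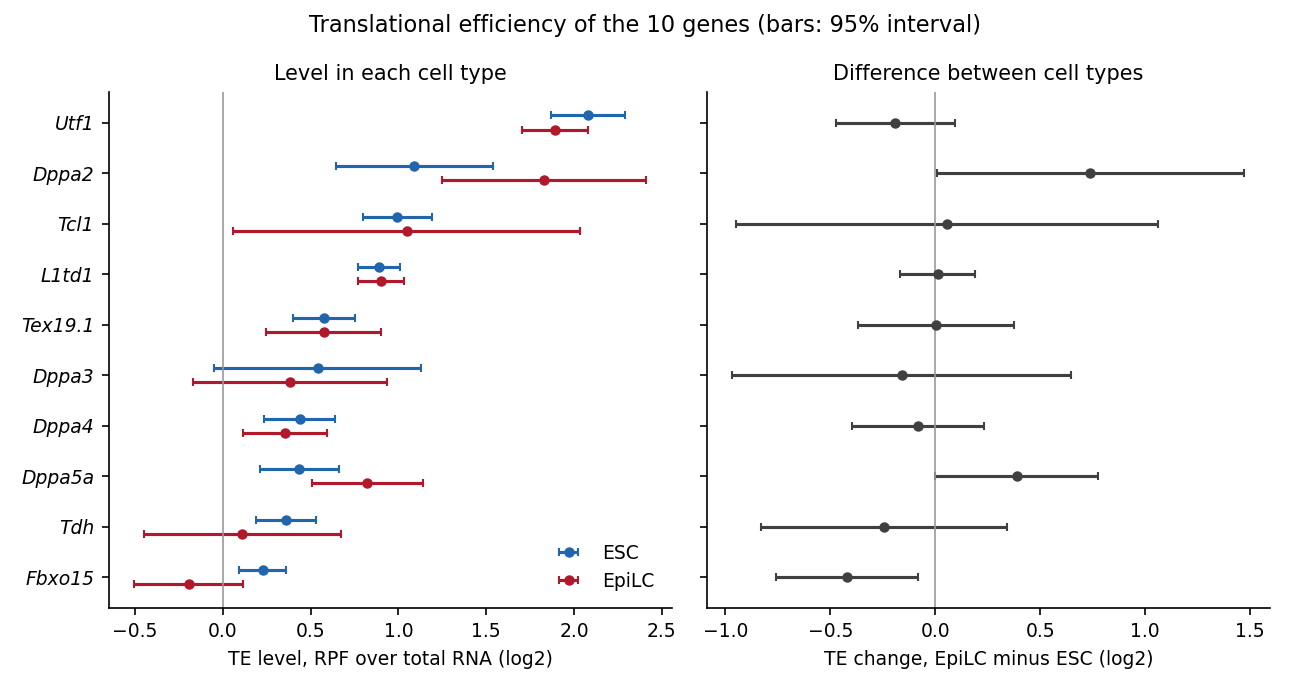
Left, log2 TE of each gene (RPF over total RNA) in ESCs (blue) and EpiLCs (red). Right, TE change, EpiLC minus ESC. Points are limma estimates and bars 95% intervals. Utf1 and Dppa2 lie highest in both cell types, and most intervals of the change include 0.

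Per length of counted sequence (RPKM, CPM per kilobase), the order of the members changed with the cell type. In ESC total RNA, Dppa5a was highest at 1262 ± 112 RPKM (SD, n = 3), above 99.8% of tested genes, followed by Tdh (392 ± 9.96), Fbxo15 (299 ± 8.56) and L1td1 (295 ± 18.5), of which the last pair overlapped. Tcl1 (127 ± 7.74), Utf1 (58.3 ± 2.54), Tex19.1 (44.4 ± 1.05) and Dppa4 (39.0 ± 2.84) followed without overlap, and Dppa2 (7.13 ± 1.32) and Dppa3 (6.77 ± 1.26) overlapped at the bottom. In EpiLC total RNA, Dppa5a (370.2 ± 40.8), L1td1 (278 ± 29.9), Utf1 (147 ± 11.96), Dppa4 (41.7 ± 3.21) and Fbxo15 (29.6 ± 5.19) stood apart from each other. Tdh (14.1 ± 3.32), Tex19.1 (13.9 ± 1.35) and Dppa3 (12.5 ± 2.68) overlapped, and so did Dppa2 (4.65 ± 0.774) and Tcl1 (3.76 ± 2.10).

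In footprints, Dppa5a was highest again in ESCs (1720.1 ± 271 RPKM), with L1td1 (546 ± 20.2) and Tdh (504 ± 40.3) overlapping after it and Tcl1 (252 ± 11.9) overlapping Utf1 (248 ± 11.9). In EpiLC RPF, Dppa5a (635 ± 193), Utf1 (561 ± 94.8) and L1td1 (510.3 ± 20.4) overlapped each other in turn and stood well above Dppa4 (53.0 ± 4.42 RPKM). Below Dppa4, each neighbour pair from Fbxo15 (25.2 ± 6.81) down to Tcl1 (9.26 ± 6.59) overlapped. Divided by the share of windows found in no other gene, the EpiLC RPF level of Dppa2 was 209 RPKM instead of 16.8, and its rank rose from 8 to 5. The rank of Dppa5a stayed at 1 in all 4 groups. This adjustment was added after the data were seen.

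The 10 members together took 0.335% ± 0.00713 of the counts in ESC RPF and 0.214% ± 0.00822 in EpiLC RPF, and 0.223% ± 0.00297 in ESC total RNA and 0.109% ± 0.00700 in EpiLC total RNA (SD, n = 3). The share of L1td1 in that sum was 38.0% to 41.9% of the ESC footprints and 57.4% to 61.4% of the EpiLC footprints. Of the members' footprints, more than before thus lay on L1td1 in EpiLCs, while its own level changed little.

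For each member the other gene with the most similar log2 CPM over the 12 libraries was Nr0b1 for Tcl1 (Pearson r = 0.996), Cobl for Tdh (0.999), Pfkp for Fbxo15 (0.996), Epp13 for Dppa5a (0.982), Nsf for Tex19.1 (0.997), Ube2g2 for Utf1 (0.994), Txnl1 for L1td1 (0.993), Rbm38 for Dppa4 (0.963), Ap2s1 for Dppa2 (0.978) and Epdr1 for Dppa3 (0.949). These correlations are a description over 12 libraries that fall into 4 groups and share the cell type and assay differences. By Spearman's rho the most similar gene was the same for 1 member, Dppa3. Among the members, Tdh and Fbxo15 were the most alike (r = 0.989).

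Relatives of the members mostly had few or no uniquely mapped reads. The part of sequence shared with other genes in these counts was not tested. Of 13 relatives by sequence family or name, 7 had no count in any library (Khdc1a, Khdc1b, Khdc1c and 4 of the 5 Tcl1b genes), which allows up to 1.12 CPM in the shallowest library, and Dppa1, Tcl1b2, Mtcp1 and Tex19.2 had reads but did not pass the filter. The other 2, both egg proteins related to Dppa5a, were called lower. Ooep, 9500 bases from Dppa5a on the same strand and next to it in the table, went from 143 ± 11.3 to 13.2 ± 2.81 CPM in total RNA (log2 -3.36 ± 0.16) and fell in RPF too (-3.72 ± 0.18). Khdc3 went from 22.02 ± 4.13 to 0.534 ± 0.463 CPM (log2 -5.64 ± 0.69), with 12, 0 and 7 counts in EpiLC total RNA.

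Of the partners of the members, Lin28a, an RNA-binding partner of L1td1, was called higher in total RNA (log2 2.03 ± 0.10) and in RPF (2.55 ± 0.11). Uhrf1, the methylation maintenance factor bound by Dppa3, was lower in RNA (-1.22 ± 0.05) and had a log2 RPF change of -0.95, under the fold limit. Of 20 genes of glycine cleavage and one-carbon metabolism, which receive the glycine made through Tdh, 19 were tested, with 1 called higher and 4 lower in RNA and a median of -0.27. Gldc, the decarboxylase of the glycine cleavage system, was higher (1.06 ± 0.07) and its partner Amt lower (-1.36 ± 0.07), and the folate enzymes Aldh1l1 (-2.72 ± 0.23) and Aldh1l2 (-1.64 ± 0.21) and the serine hydroxymethyltransferase Shmt2 (-1.12 ± 0.06) were lower. In RPF, 3 of the list were called lower (Amt, Shmt2 and Aldh1l1).

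Of 13 other genes expressed in pluripotent cells, 2 were called higher and 5 lower, with a median of -0.64. Nr0b1 (-5.10 ± 0.28), Trap1a (-4.24 ± 0.18) and Zfp42 (-3.45 ± 0.12) fell furthest, by amounts like those of Tcl1, Tdh and Fbxo15, and Lefty1 (2.83 ± 0.11) and Lin28a rose. Of 22 germline genes silenced by promoter methylation in somatic cells, the class to which Tex19.1 belongs, 18 were tested, with 9 called higher and 3 lower and a median of 0.81. Taf7l (2.56 ± 0.35), Tdrkh (2.38 ± 0.22) and Mael (2.27 ± 0.20) were higher, and Tuba3a (-2.46 ± 0.19), Rpl10l (-2.39 ± 0.19) and Hormad1 (-2.08 ± 0.23) were lower. In RPF, 8 of the 18 were called higher and 4 lower. Of 8 primordial germ cell genes, a stage at which Dppa3 is known to be expressed, 7 were tested, with 5 called lower (Prdm14 -5.81 ± 0.61, Tfap2c -3.24 ± 0.23, Kit -2.96 ± 0.08 among them), and 5 in RPF as well. Of 11 genes of the 2-cell-like state, 10 were in the table and 1 was tested (Zscan4d), with a log2 change of 0.79 ± 0.29 in RNA, which was not called, and a call of lower in RPF (-1.99 ± 0.66, adjusted p = 0.0112) on at most 4 counts in an EpiLC library. Of the 9 naive, primed and shared pluripotency markers, 3 were called higher and 5 lower, with a median of -1.58. Of the shared markers, Sox2 (-2.72 ± 0.11) and Nanog (-1.58 ± 0.07) were called lower and Pou5f1 (-0.65 ± 0.05) was not called.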

How the data were processed

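Ribosome protected fragments and total RNA were sequenced from ESCs and EpiLCs (12 libraries, 3 per group) with the TruSeq Ribosome Profiling kit. Per the study's methods, the authors trimmed reads with cutadapt 1.14, keeping 26 to 32 nt for RPF and at least 32 nt of the 50 nt reads for total RNA, and mapped them uniquely to mm10 (Gencode M14) with STAR 2.5.3a. The deposited values are raw counts per gene of read 5′ ends on the sense strand, made by the authors with featureCounts v1.5.3 over coding sequence without its first 45 nt. Unique mapping removes reads that fit pseudogene copies.

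Counts were scaled by TMM (edgeR 4.0.16), filtered at 3 CPM in at least 3 libraries and fitted with voom and limma 3.58.1 in R 4.3.3 on the 4 groups, with p-values adjusted by Benjamini-Hochberg over 11750 genes. TE change was an interaction term. Totals ran from 2681439 to 14655015 counts per library, and floors cover counting error only. CPM and RPKM were computed from the counts with TMM-scaled library totals and counted lengths, and floors with unscaled totals. Windows, start contexts and upstream ATG came from Gencode M21 transcripts and promoters from RefSeq, where 4 of the 10 members had an entry. Alternatives were edgeR, DESeq2 1.42.0, limma-trend, other scalings and filters, blocks, a GC correction and leaving out each library.

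The members and the gene lists were chosen with earlier results of these data known. All 10 members are named, and of each list the 3 called genes that changed most in each direction in RNA. Others named (Shmt2, Zscan4d, Sox2, Nanog, Pou5f1 and the relatives that did not pass the filter) were chosen after their values were seen. One gene of the lists, and counts that include it, are not reported here. No protein sequences were used here.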

Additional observations from a re-analysis of the deposited data

How the results depend on the processing

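All 5 members called lower in RNA and RPF were called lower when any of the 12 libraries was left out. The number of members called higher was 0 in RNA and 0 in RPF after the GC correction, with or without the replicate block (main value 1), 2 in each without the fold limit, and 1 to 2 in RNA when a library was left out. For TE, the number called high in ESCs was 1 in limma-trend, 9 without the fold limit and 1 to 3 when a library was left out, and in EpiLCs it was 4 after the GC correction with the replicate block and 6 without the fold limit (main value 2 in both). Over all 11750 tested genes, those called higher numbered 1605 in RNA and 1694 in RPF after the GC correction. Without the fold limit they numbered 4068 and 3660, and genes called high in TE 3872 in ESCs and 3681 in EpiLCs. High TE was called for 889 genes in ESCs in limma-trend and for 1178 in EpiLCs after the GC correction with the replicate block. Of 240 values of the counts of members over the alternatives, 226 stayed within 1.5 times the main count. These include the counts for the TE change and for low TE, which were 0 in the main fit and in every alternative. They also include fits without a library that the comparison does not use. Of 1195 fold change values of the members, 1114 kept their direction and their side of the threshold, 37 passed it instead, 7 lost it and 37 turned in sign. These values include the setting without the fold limit, which keeps the main values, so those that passed there did so by definition. They include fits without an unused library as well.

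Values that turned in sign were below 0.12 on the log2 scale when no library was left out. The RPF change of Dppa4 was -0.011 in DESeq2, -0.022 with DESeq2 size factors, -0.020 without the expression filter and -0.024 after the GC correction, also with the block. The TE of Fbxo15 in EpiLCs was 0.10 after the GC correction and 0.11 with the block added. The TE change of L1td1 was -0.0065 in edgeR and -0.0049 in limma-trend, and that of Tex19.1 was -0.0065 in edgeR, -0.0083 in limma-trend, -0.0053 with the replicate block, -0.025 after the GC correction and -0.030 with both. With a library left out, the RPF change ran from -0.061 to 0.39 for Dppa2 and from -0.10 to 0.053 for Dppa4. The TE change then ran from -0.58 to 0.70 for Tcl1, from -0.81 to 0.22 for Tdh, from -0.058 to 0.081 for L1td1 and from -0.075 to 0.087 for Tex19.1, and the TE of Tdh in EpiLCs from -0.42 to 0.61. The cause was not tested.

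Neither the labels nor the methods say what the replicate numbers share, although the study calls the total RNA matched to the RPF, and no set of pairs had a correlation over 0.1 throughout. Deviations of same-numbered libraries from their group means correlated at -0.017 to 0.028 between ESC and EpiLC total RNA, at 0.025 to 0.039 between ESC and EpiLC RPF, and at -0.17 to 0.093 (ESC) and -0.017 to 0.12 (EpiLC) between RPF and total RNA. Each ESC RPF library correlated best with the EpiLC RPF library of its own number. With the replicate block the counts of members called were 1 higher and 5 lower in RNA and in RPF, 0 for the TE change, and 2 (ESC) and 3 (EpiLC) for high TE, and over all tested genes the TE change calls went from 16 higher and 14 lower to 30 and 23 (38 and 23 with the GC correction added, and 32 and 24 in DESeq2). With RPF and total RNA of a number joined as a random block they were 20 and 17, and the TE of Tcl1 in EpiLCs was called (1.06). Over all tested genes the replicate block gave 1726 higher and 1139 lower calls in RNA and 1827 and 1243 in RPF. High TE was then called for 941 genes in ESCs and 1124 in EpiLCs. A filter of at least 10 counts in every library removed Tcl1 and no other member. Dppa3 and Dppa2 had the fewest reads of the members over the 12 libraries (445 and 859). The part of depth in the values of Tcl1, Dppa3 and Dppa2 was not tested.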
